A study of Mus musculus with 6 samples.

Results

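The natural killer receptor gene complex of the mouse lies on chromosome 6, and was taken here as the 3.1 Mb from chr6:128300001-131400000 of the mm9 genome build, a window set by position. Every read whose midpoint fell in the window was used. The window holds 1550 of the 1320937 bins of 2 kb in the genome, in which trimethylation of histone H3 at lysine 4 (H3K4me3) was counted, and 310 of the 264195 bins of 10 kb, in which trimethylation at lysine 36 (H3K36me3) was counted. It was divided at fixed positions into the Cd69 part (chr6:129150001-129300000, 150 kb, 75 and 15 bins), which holds Cd69, the Klr parts (chr6:129400001-131400000, 2 Mb, 1000 and 200 bins), the 850 kb before the Cd69 part, and the 100 kb between the Cd69 part and the Klr parts.

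The study mapped nucleosomes in T cells at the mature CD4+ and the mature CD8+ stage, taken from C57BL/6 thymus. No genetic change or treatment is named for either group, and no label states how old or how many the animals were. Chromatin was cut with micrococcal nuclease to mononucleosomes, and each cell type gave 1 library precipitated with a rabbit polyclonal antibody to H3K4me3, 1 with an antibody to H3K36me3, and 1 input library without precipitation that serves both marks. With 1 library in each of the 6 groups no difference has a replicate check and no p-value is given: the intervals below are exact (Clopper-Pearson) and cover counting error only, so that they compare libraries and not conditions. In bulk chromatin, fewer cells that carry a mark and less of the mark per cell cannot be told apart. The labelled cell types were not checked against the coreceptor genes, because no gene positions in mm9 were used.

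The complex encodes C-type lectin-like receptors that natural killer cells, and some T cells, use to read the state of other cells. Its families include the Klrb1 (Nkrp1) receptors, whose ligands are the neighbouring Clec2 proteins; the Cd94/Nkg2 group (Klrd1, Klrc1 and relatives), which reads nonclassical MHC class I; Klrk1 (Nkg2d), an activating receptor for stress-induced ligands; the Klra (Ly49) receptors, which read classical MHC class I; and lectins of myeloid cells such as Clec7a, a receptor for beta-glucan. Cd69 encodes a lectin-like surface protein that T cells display early after receptor signalling and that holds them in tissue by removing the egress receptor S1pr1 from the surface. H3K4me3 is known from the starts of active genes and H3K36me3 from the bodies of transcribed genes, so that a transcribed gene usually carries the first mark at its start and the second beyond it.

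The order of the protein-coding genes was taken from RefSeq for the later build GRCm38.p6, whose positions cannot be set against the mm9 positions of the reads. In that order Clec2f, Klrb1f, Clec2e and Clec2d precede Cd69, and Clec2m, Clec12a, Clec12b, Clec1b, Clec9a, Clec1a, Clec7a, Olr1, Tmem52b, Gabarapl1, Klre1, Klrd1, Klrk1, Klrc3, Klrc2, Klrc1, Klri1, Klri2 and Klrh1 follow it, before the Klra genes. No mm9 position below is assigned to a gene other than the Cd69 part as a whole.

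Near-identical genes limit what reads of 33 bases can show here, and the pair Klrc2 and Klrc3, receptor chains that pair with Klrd1, makes the point. The 250 bases before their starts are shown 5′ to 3′ on the sense strand, from RefSeq promoter sequences with GRCm38.p6 positions. Capitals mark the positions at which they differ without gaps.
Klrc2 (chr6:129660557-129660806, minus strand): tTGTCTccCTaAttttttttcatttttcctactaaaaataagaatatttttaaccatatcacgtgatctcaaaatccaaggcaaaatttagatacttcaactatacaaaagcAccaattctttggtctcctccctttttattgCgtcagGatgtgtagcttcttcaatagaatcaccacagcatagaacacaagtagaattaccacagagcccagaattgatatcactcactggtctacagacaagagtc
Klrc3 (chr6:129643289-129643538, minus strand): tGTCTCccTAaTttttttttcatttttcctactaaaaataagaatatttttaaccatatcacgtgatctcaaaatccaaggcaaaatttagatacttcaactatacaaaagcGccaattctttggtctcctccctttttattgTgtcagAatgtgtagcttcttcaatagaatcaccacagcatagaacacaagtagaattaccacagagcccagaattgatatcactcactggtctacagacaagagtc
They differ at 11 of 250 positions, so that 95.6% are the same, and the differing letters stand at the upstream end and at 3 single places near the middle. In the 300-base windows around their starts, 69.4% of the 33-base words recur in another gene's window, the highest share among the 9 windows of the Cd94/Nkg2 genes. Of the 13 windows of Klra genes, 8 (61.5%) share at least one 33-base word with the window of another gene, up to 49.6% of the words for Klra9. None of the 7 windows of the myeloid lectins did, and 21.1% of all 32851 windows did. No label states how reads that match several places were treated, so a low count in the Klr parts can be low mark or reads that were not placed, and the 2 cannot be told apart for such copies.

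The windows also differ in CG content, shown by Klrk1 and by Gabarapl1, a gene of the autophagy machinery that lies among the receptor genes and was picked after its count was seen. Capitals mark CG, on the same 250 bases before the start.
Klrk1 (chr6:129623865-129624114, minus strand): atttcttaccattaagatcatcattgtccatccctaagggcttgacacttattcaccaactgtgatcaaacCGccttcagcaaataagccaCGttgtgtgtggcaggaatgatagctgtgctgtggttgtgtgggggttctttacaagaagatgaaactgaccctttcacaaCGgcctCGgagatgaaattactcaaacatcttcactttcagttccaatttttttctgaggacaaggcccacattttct
Gabarapl1 (chr6:129532942-129533191, plus strand): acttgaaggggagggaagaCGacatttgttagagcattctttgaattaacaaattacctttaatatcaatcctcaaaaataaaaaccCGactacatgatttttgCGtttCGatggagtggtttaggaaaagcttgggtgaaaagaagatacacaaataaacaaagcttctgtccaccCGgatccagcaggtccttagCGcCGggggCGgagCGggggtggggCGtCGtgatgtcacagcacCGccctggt
The printed stretch of Gabarapl1 holds 12 CG and that of Klrk1 holds 4. Over the 300-base windows the median was 2 CG in the Klra genes (range 0 to 4), 2 in the Cd94/Nkg2 genes (1 to 4) and 2.5 in the Klrb1 genes (1 to 7). It was 4 in the Clec2 genes (0 to 5), 5 in the myeloid lectins (1 to 7) and 7 over all windows (0 to 67). The 7 windows of listed genes that are not lectins had a median of 4 (2 to 34). They include Mug1 and Mug2, which lie far from the complex, with windows from chr6:121838291 and chr6:122006548 in GRCm38.p6. The ranges of this mixed group and of each receptor family overlap. The motif searched was CG, which reads the same on both strands, and 94.57% of all windows hold at least one. Of the genes listed for these families, 5 of 5 Klrb1, 5 of 6 Clec2, 6 of 7 myeloid lectin, 7 of 9 Cd94/Nkg2 and 11 of 22 Klra genes had a window, and Cd69 had none. The 22 are the names Klra1 to Klra22, of which 12 were among the RefSeq genes used.

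The 6 libraries held between 6730337 and 12114294 reads on the autosomes and sex chromosomes. The H3K4me3 libraries repeat read starts far more than the others: distinct starts made up 54.4% of reads in CD4 and 31.4% in CD8, against 91.2% to 97.6% in the other 4. In the 892154 bins at least 10 kb from any bin with more than 9 reads of either mark, which are therefore low by choice, the CD4 H3K4me3 library lay at 19.2% of its input and the CD8 library at 1.20%, while H3K36me3 lay at 31.7% and 32.5%. Values within the complex are given with this difference in background.

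Enrichment of a bin in a cell type required 20 or more reads and, relative to the total of each library, a fold over the input of 4 or more for H3K4me3 and of 2 or more for H3K36me3, where an input under 3 reads was set to 3. By this rule 35 bins of the complex carried H3K4me3 in CD4 cells and 32 in CD8 cells, of 1550, with 31 enriched in both. Over the genome the same rule called 1.74% of bins in CD4 and 1.59% in CD8. Joined where adjacent, the enriched bins formed 20 stretches: 12 before the Cd69 part, 3 in it, none in the 100 kb after it and 5 in the Klr parts. The median fold over input of the enriched bins was 61.4 in CD4 and 42.2 in CD8, beside 31.8 and 52.9 for enriched bins of the genome.

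**Figure D1:**
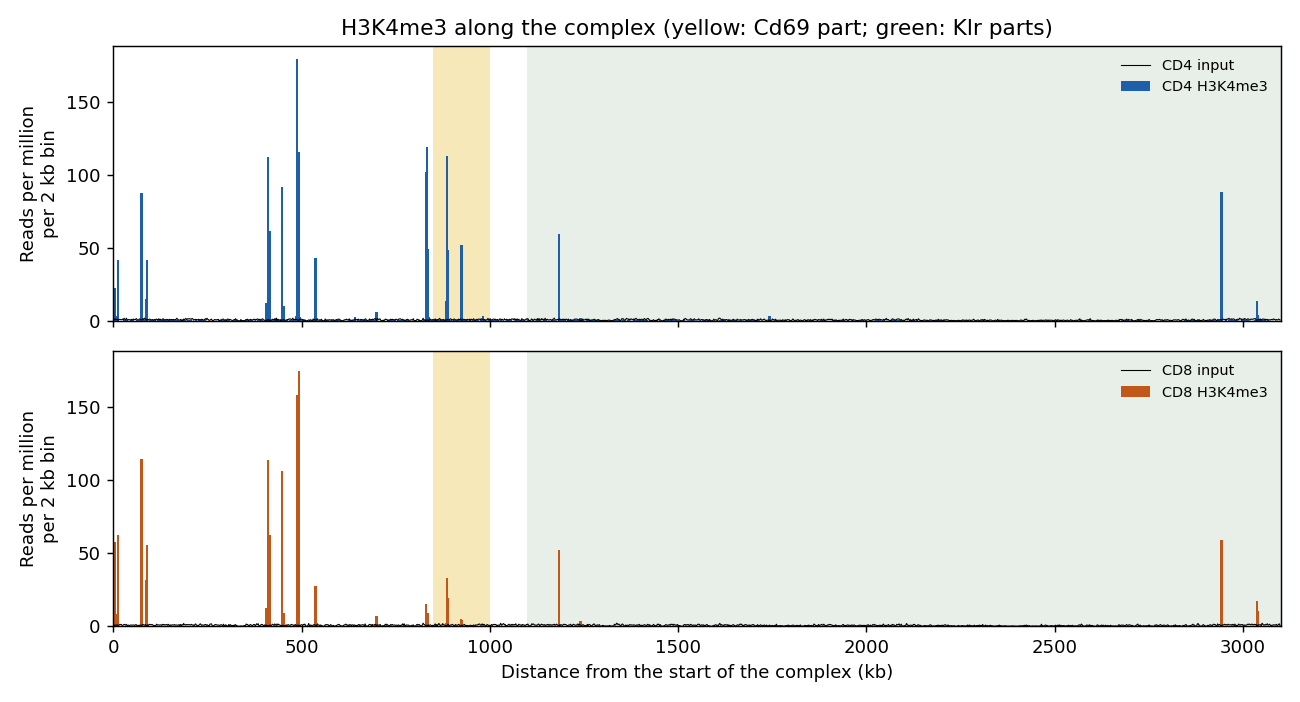
H3K4me3 and input along the complex, as reads scaled to library total in bins of 2 kb (linear axis) against the distance in kb from the start of the complex, with CD4 above and CD8 below, coloured bars for H3K4me3 drawn wider than a bin so that they can be seen, and a black line for input. Tall bars crowd the side before the Cd69 part (yellow) in both cell types, the bars in and just before the Cd69 part are taller in CD4, and the Klr parts (green) are nearly empty.

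Much of the strongest H3K4me3 of the complex lay before the Cd69 part. The highest fold over input in CD4, 403.9, was in the bin at chr6:129132001-129134000, where CD8 lay at 10.5-fold (1278 CD4 and 102 CD8 reads). Other strong bins there differed less. The bin at chr6:128788001-128790000 held 1923 CD4 and 1917 CD8 reads (260.5-fold and 225.5-fold over input), and that at chr6:128792001-128794000 held 1241 and 2115 (294.1-fold and 217.7-fold). The stretch at chr6:128710001-128716000 held 1997 and 2184 reads, that at chr6:128748001-128754000 held 1161 and 1450, and that at chr6:128374001-128376000 held 942 and 1384. Of the 12 stretches before the Cd69 part, 10 did not meet the rule for a difference between cell types, given below.

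The remaining stretches with no call on that side ranged from weak to strong. Those at chr6:128998001-129000000 (67 CD4 and 87 CD8 reads) and chr6:128704001-128706000 (134 and 151) were the weakest. Those at chr6:128312001-128314000 (445 and 755), chr6:128386001-128390000 (604 and 1055) and chr6:128304001-128308000 (276 and 801) held more reads in the CD8 library. The last of these was the closest of all stretches to a call in the CD8 direction, at 1.94-fold (1.69 to 2.24).

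Of the 310 bins of 10 kb, 23 were enriched for H3K36me3 in CD4 cells, 26 in CD8 cells and 17 in both. Over the genome 10.3% and 10.2% of bins were called, beside 7.42% and 8.39% in the complex. The enriched bins had median folds of 2.94 and 2.66, beside 4.10 and 4.25 for the genome. They formed 18 stretches, 7 before the Cd69 part, 3 in it and 8 in the Klr parts.

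**Figure D2:**
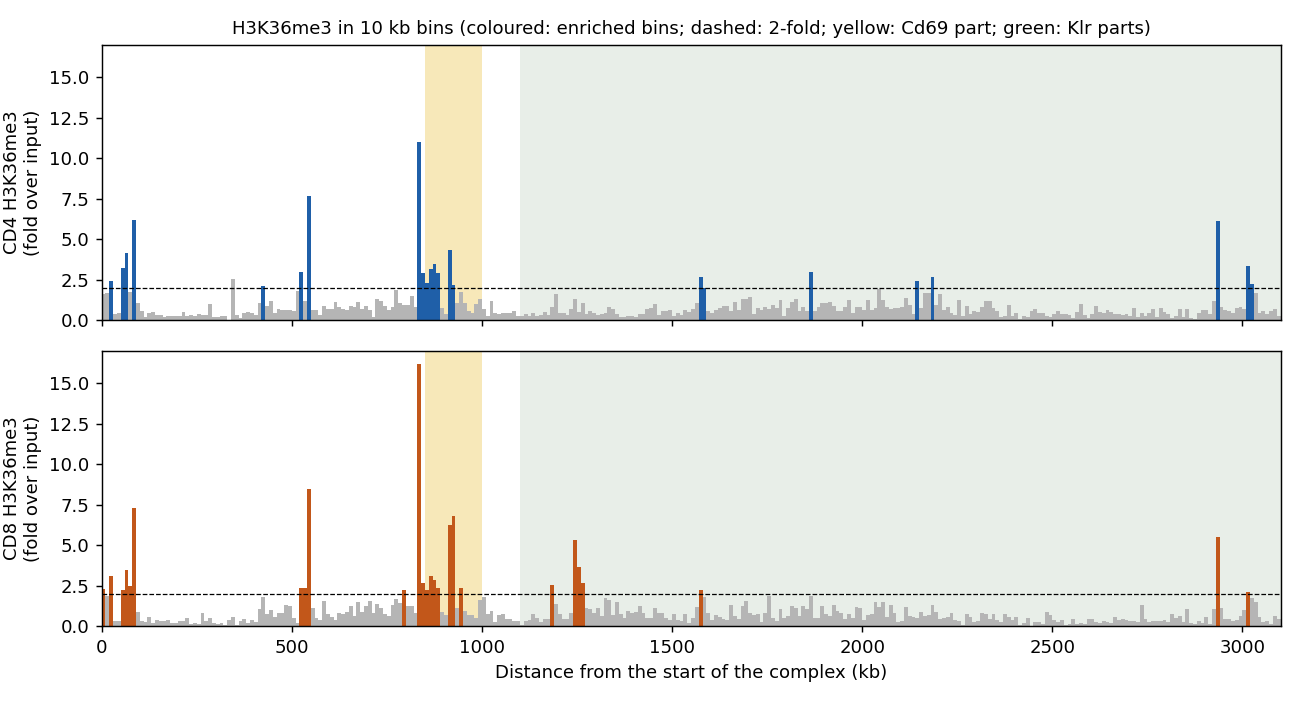
H3K36me3 as fold over input (linear axis) in bins of 10 kb against the distance in kb from the start of the complex, with CD4 above and CD8 below, coloured bars for enriched bins, grey for the rest and a dashed line at the threshold of 2. Enriched bins group in and just before the Cd69 part (yellow) in both cell types, a group early in the Klr parts (green) is coloured in CD8 alone, and the grey CD4 bar above the line has 5 reads, too few for a call.

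Before the Cd69 part, 4 of the 7 H3K36me3 stretches held bins enriched in both cell types, 2 were enriched in CD8 only by the call rule (chr6:128300001-128310000 and chr6:129090001-129100000) and 1 in CD4 only (chr6:128720001-128730000). None was called different. The longest there, at chr6:128350001-128390000, held 496 CD4 and 382 CD8 reads (3.88-fold and 3.79-fold over input), and that at chr6:128820001-128850000 held 250 and 328 (3.94-fold and 4.79-fold). Smaller stretches held 47 and 61 reads at chr6:128300001-128310000, 87 and 99 at chr6:128320001-128330000, 70 and 67 at chr6:128720001-128730000, and 23 and 39 at chr6:129090001-129100000.

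The Cd69 part had the highest share of enriched bins among the divisions of the complex for both marks, above that of the Klr parts. H3K4me3 was enriched in 8 of its 75 bins in CD4 cells (10.7%) and in 6 in CD8 cells (8.0%), which form 3 stretches. With a fold of 8, or with at least 50 reads, 5 and 3 were left. In the Klr parts 6 of 1000 bins were enriched in CD4 cells (0.600%) and 5 in CD8 cells (0.500%), below the genome's shares of 1.74% and 1.59%. For H3K36me3, 6 of 15 bins of the Cd69 part were enriched in CD4 cells (40%) and 7 in CD8 cells (46.7%), again in 3 stretches, against 8 of 200 (4.0%) and 7 of 200 (3.50%) in the Klr parts. With a fold of 3 these counts were 3 and 3 in the Cd69 part and 2 and 3 in the Klr parts. Adjacent bins of 1 library are not independent, so no interval is given for these shares.

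Summed over whole divisions, the Cd69 part held 2969 CD4 and 835 CD8 H3K4me3 reads, with 617 and 590 input reads, which is 4.56 times input in CD4 (95% interval 4.18 to 4.98) and 1.17 times in CD8 (1.05 to 1.30). The Klr parts held 3244 and 1789 reads against 5921 and 5979 input reads, or 0.519 times input (0.498 to 0.542) and 0.246 times (0.234 to 0.260). The 850 kb before the Cd69 part lay at 4.0 times input in CD4 (3.85 to 4.16) and 3.38 times in CD8 (3.25 to 3.51), so that in CD8 the Cd69 part lay below it. The level of the Cd69 part was 8.78 times that of the Klr parts in CD4 and 4.73 times in CD8. For H3K36me3 the Cd69 part lay at 1.69 times input in CD4 (1.51 to 1.89) and 2.13 times in CD8 (1.92 to 2.37), the Klr parts at 0.737 (0.704 to 0.770) and 0.791 (0.758 to 0.826), and the ratios were 2.29 and 2.70. All 4 ratios kept the Cd69 part above the Klr parts under every processing tried.

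Within the Cd69 part the H3K4me3 reads were concentrated: enriched bins held 91.9% of them in CD4 and 98.6% in CD8. The largest stretch, chr6:129182001-129190000, held 1916 CD4 and 694 CD8 reads against 27 and 31 input reads, 67.3-fold (46.1 to 102) and 18.4-fold (12.9 to 27.4) over input. In bins of 200 bp, where a domain joins bins at 4-fold over input or more across gaps of up to 400 bp, the tallest point was the same in both libraries, chr6:129187801-129188000, with 451 CD4 and 272 CD8 reads. Around it the domain spanned 4600 bp in CD4 (chr6:129185201-129189800, 1815 reads) and 1200 bp in CD8 (chr6:129187401-129188600, 606 reads). The peak position was thus shared, and the CD4 domain was wider by this rule. A fixed fold cuts a lower peak closer to its top, so width was not separated from height, here or in the domains below.

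The stretch at chr6:129222001-129228000 held 779 CD4 and 111 CD8 reads against 22 and 16 input reads, 33.6-fold (22.0 to 53.9) and 5.71-fold (3.37 to 10.3). Its CD4 domain covered 2800 bp (chr6:129223401-129226200, 752 reads) with the tallest point at chr6:129224801-129225000 (117 reads). Its CD8 domain covered 400 bp (chr6:129223601-129224000, 62 reads) with the tallest point elsewhere, at chr6:129223801-129224000 (39 reads). The weakest, chr6:129282001-129284000, held 34 CD4 and 18 CD8 reads, 5.37-fold and 1.65-fold over input, and was enriched in CD4 only by the call rule.

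**Figure D3:**
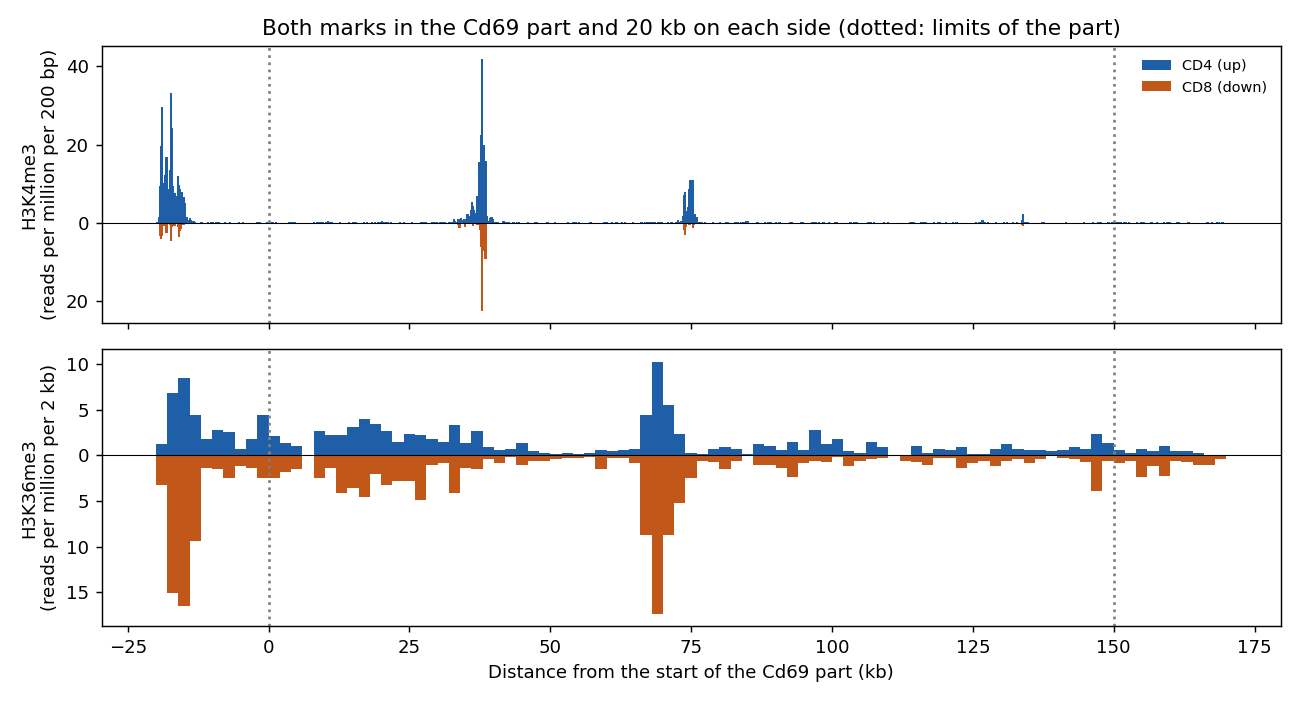
Both marks over the Cd69 part and 20 kb on each side, as reads scaled to library total, CD4 drawn upward and CD8 downward, in bins of 200 bp for H3K4me3 and of 2 kb for H3K36me3, against the distance in kb from the start of the Cd69 part. The H3K4me3 groups stand at the same places and are taller in CD4, and the tallest H3K36me3 bins, just before the part and near its middle, are taller in CD8.

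The H3K36me3 of the Cd69 part lay in 3 stretches. That at chr6:129150001-129190000 held 285 CD4 and 318 CD8 reads (2.97-fold and 2.70-fold over input), that at chr6:129210001-129230000 held 172 and 306 (3.21-fold and 6.45-fold), and that at chr6:129240001-129250000 held 45 and 40. Around the H3K4me3 stretch at chr6:129222001-129228000 the H3K36me3 was on one side: the 10 kb at lower positions held 145 and 243 reads, 5.10-fold and 8.97-fold over input, and the 10 kb at higher positions held 25 and 26, 0.922-fold and 1.01-fold.

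For comparison between cell types, a bin or stretch enriched in either was called different when the ratio of its reads, centred on the median log2 ratio of genome bins enriched in both, was at least 2-fold with an interval, at an error of 0.1%, that excludes 1. The median log2 ratio that was removed was -0.40 for H3K4me3 and -0.04 for H3K36me3. H3K4me3 was called higher in CD4 in 16 of the 36 bins of the complex enriched in either, and higher in CD8 in 0. Over the genome 25% of such bins were higher in CD4 and 5.08% higher in CD8. Scaled by total reads alone, the counts were 13 and 4.

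All 8 enriched H3K4me3 bins of the Cd69 part were called higher in CD4, and 6 of them on total reads. Summed over the part, H3K4me3 was 5.31-fold higher in CD4 (95% interval 4.92 to 5.74; log2 2.41), with 2969 reads against 835. The stretch at chr6:129182001-129190000 was 4.12-fold higher (3.78 to 4.50), that at chr6:129222001-129228000 10.5-fold (8.58 to 12.9) and the weak one at chr6:129282001-129284000 2.82-fold (1.55 to 5.31). The log2 ratio of the whole part was 2.36 after the background of each library was subtracted, 2.03 when each read start was counted once and 2.00 on total reads. With each start counted once, and the centre taken anew from such counts, the log2 ratio was 1.55 at the first stretch, against 2.04. At the second stretch it was 2.64, against 3.39, and both kept the call. Scaled by the totals of distinct starts without a centre, the log2 ratio was 0.85 at the first stretch, which is under 2-fold, and 1.94 at the second. The 2.82-fold call was lost on total reads (log2 1.09) and with each start counted once (log2 1.08).

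H3K36me3 did not move with H3K4me3 in the Cd69 part: it was 1.20-fold higher in CD8 (1.08 to 1.33; log2 -0.26), with 690 CD4 and 853 CD8 reads, and none of its bins or stretches was called different. The stretch nearest to a call, chr6:129210001-129230000, was 1.73-fold higher in CD8 (1.43 to 2.09), beside H3K4me3 that was 10.5-fold higher in CD4. The stretch at chr6:129150001-129190000 had a log2 ratio of -0.11 (-0.35 to 0.12), an interval that includes no difference.

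The same opposition stood at chr6:129130001-129138000, just before the Cd69 part. There H3K4me3 held 2930 CD4 and 394 CD8 reads with 20 and 24 input reads, 138.9-fold and 13.5-fold over input, which is 11.1-fold higher in CD4 (9.995 to 12.4; log2 3.47). With each start counted once the reads were 1223 and 258. The log2 ratio was then 2.33 with a centre from such counts and 1.63 without a centre. With all reads, scaled by total reads alone, it was 3.07. Its CD4 domain extended over 5800 bp (chr6:129130401-129136200, 2911 reads). The H3K36me3 reads within the stretch were 141 in CD4 and 298 in CD8, and the H3K36me3 stretch at chr6:129130001-129150000 held 236 and 368 (log2 -0.60, -0.84 to -0.36), 5.57-fold and 8.76-fold over input. The other stretch before the Cd69 part that was called, chr6:128836001-128840000, held 894 and 549 reads, 2.43-fold higher in CD4, and lost the call on total reads (log2 0.88) and with each start counted once (log2 0.92).

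**Figure D4:**
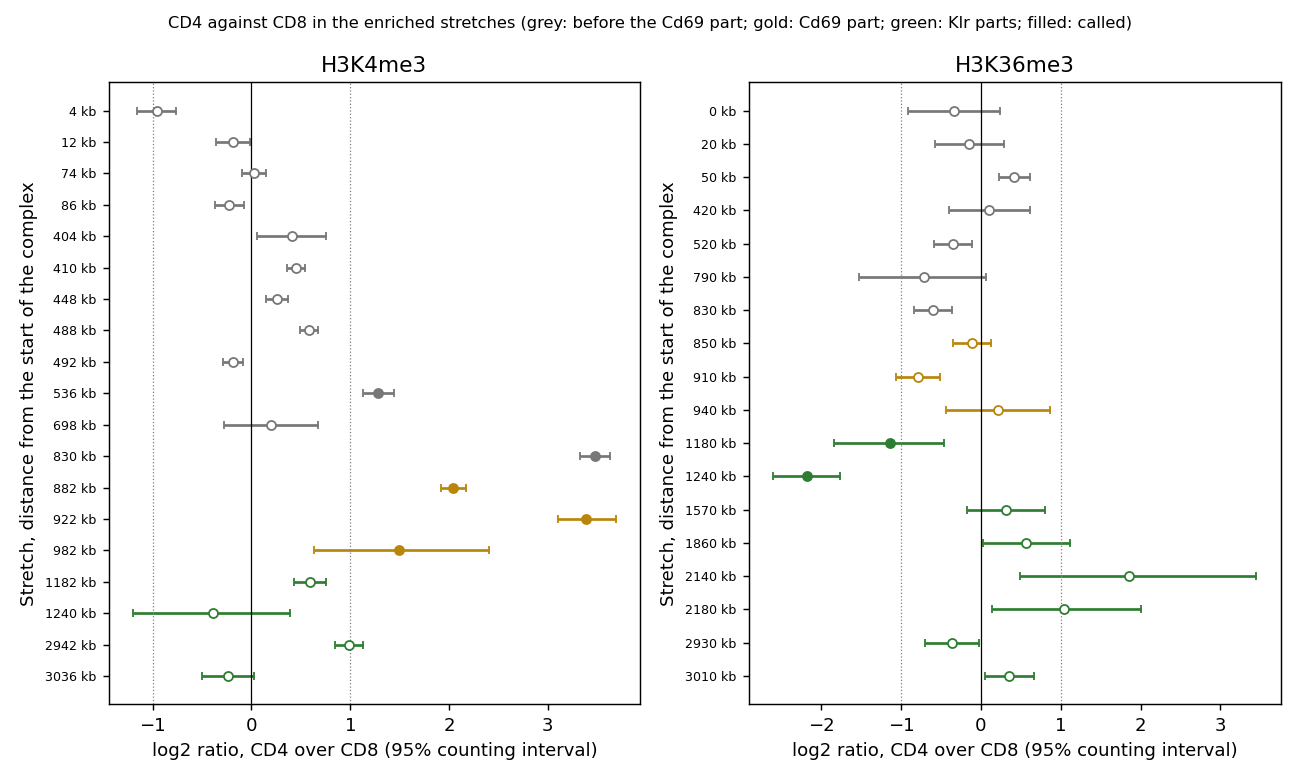
Log2 ratio of CD4 over CD8 reads (points, with 95% counting intervals) for each enriched stretch, labelled by its distance in kb from the start of the complex, with filled points for stretches called different, dotted lines at 2-fold and the stretch with no CD8 read left out. Filled H3K4me3 points all lie above 0, 3 of them in the Cd69 part (gold) and 2 before it (grey), and both filled H3K36me3 points lie below 0 in the Klr parts (green).

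Of the 5 H3K4me3 stretches of the Klr parts, 1 was called different between the cell types. Summed over the Klr parts H3K4me3 was 2.71-fold higher in CD4 (2.56 to 2.87), and outside enriched bins the libraries held 1408 (CD4) and 62 (CD8) of these reads. That at chr6:131242001-131244000 held 947 CD4 and 713 CD8 reads (179.6-fold and 146.8-fold over input; log2 0.99, 0.85 to 1.13), and that at chr6:129482001-129484000 held 639 and 634 (151.5-fold and 174.0-fold; log2 0.59, 0.43 to 0.75). That at chr6:131336001-131340000 held 192 and 337 (18.2-fold and 34.7-fold), and none of these 3 was called different, although the intervals of the first 2 lie above 0. Their levels were within the range of the stretches before the Cd69 part.

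The other 2 were weak. The bin at chr6:130042001-130044000 held 36 CD4 reads at 32 distinct starts and 0 CD8 reads, with 3 and 8 input reads. With the CD8 count set to a floor of 3 reads it was 17.9-fold higher in CD4, a value without an interval. The bin at chr6:129540001-129542000 held 22 CD4 and 43 CD8 reads (6.95-fold and 4.43-fold), with a log2 ratio of -0.39 (-1.20 to 0.39) that does not separate the libraries.

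H3K36me3 was called higher in CD8 in 4 bins of the complex and higher in CD4 in 0, of 32 enriched in either, beside 0.840% and 2.08% of such bins over the genome. With a fold of 3 over input, 2 were called higher in CD8, and with bins moved by 5 kb, 2 higher in CD8 and 1 higher in CD4. All 4 lay in the Klr parts, within chr6:129480001-129570000. The stretch at chr6:129540001-129570000, which begins at the weak H3K4me3 bin just described, held 60 CD4 and 279 CD8 reads against 103 and 104 input reads, 0.880-fold (0.629 to 1.22) and 3.96-fold (3.15 to 5.01) over input. It was 4.51-fold higher in CD8 (3.40 to 6.07; log2 -2.17), at 60 and 265 distinct starts, and its 3 bins held 25 and 145, 15 and 67, and 20 and 67 reads. The CD4 interval includes the input level, so H3K36me3 was not detected above input there in CD4 cells. The 0.880-fold lies above the 62.2% of input outside enriched bins of the Klr parts in CD4, so absence of the mark is not shown. H3K4me3 at the start of the stretch met the rule in both cell types, in CD4 on 22 reads with 1 input read set to 3.

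A run of 3 or more adjacent bins higher in CD8 was uncommon: the genome holds 195 runs of such bins, of which 8 have 3 or more. Nearby, the bin at chr6:129480001-129490000, which contains the H3K4me3 stretch with 639 and 634 reads, held 27 CD4 and 61 CD8 H3K36me3 reads (0.833-fold and 2.57-fold) and was 2.19-fold higher in CD8 (1.37 to 3.59). Toward higher positions the excess in CD8 extended past the called bins. The 300 kb at chr6:129570001-129870000, with no enriched bin, held 337 CD4 and 587 CD8 reads, 46.7% and 81.3% of input, which is 1.69-fold higher in CD8 (log2 -0.76, -0.95 to -0.56).

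In tiles of 100 kb, a size chosen after the values were seen, the ratio was lowest at chr6:129500001-129600000, with 135 CD4 and 421 CD8 reads (log2 -1.60, -1.89 to -1.31). Of 12461 tiles of the genome with at least 200 reads, 4 had a lower ratio. The next tile held 94 and 241 reads (log2 -1.31, -1.67 to -0.97; 9 tiles lower) and the one after it 119 and 181 (log2 -0.56; 179 tiles lower). The input reads of the first 2 tiles were 345 and 377, and 389 and 344. At lower positions a weaker excess in CD8 was present as well. Every tile within chr6:129000001-129500000, which takes in the Cd69 part, had a log2 ratio between -0.34 and -0.41, with an interval below 0.

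**Figure D5:**
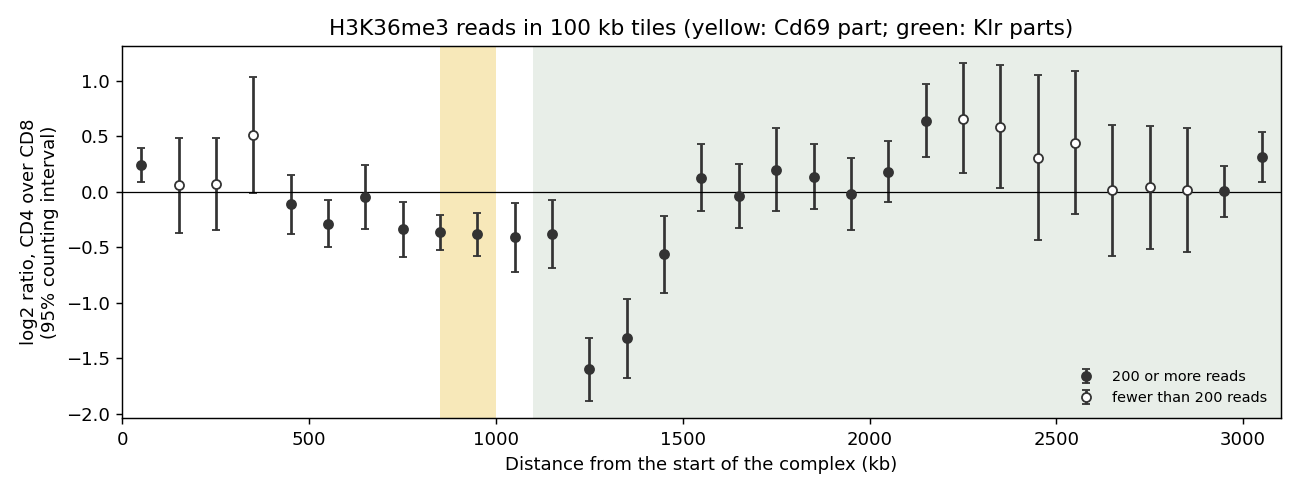
Log2 ratio of CD4 over CD8 H3K36me3 reads (points, with 95% counting intervals) in tiles of 100 kb against the distance in kb from the start of the complex, with open points for tiles under 200 reads. The ratio falls to -1.60 and -1.31 early in the Klr parts (green), is -0.56 in the next tile, and lies between -0.04 and 0.66 in the tiles after it.

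Elsewhere in the Klr parts no H3K36me3 stretch was called different. Those at chr6:131230001-131240000 (129 CD4 and 171 CD8 reads, 6.09-fold and 5.49-fold over input) and chr6:131310001-131330000 (195 and 157, 2.73-fold and 1.93-fold) lay beside the 2 last H3K4me3 stretches, on their side of lower positions. At the first of these the 10 kb at lower positions lay at 5.0-fold and 5.06-fold over input and the 10 kb at higher positions at 0.624-fold and 0.625-fold. The others held 82 and 68 reads at chr6:129870001-129890000, 72 and 50 at chr6:130160001-130170000, 21 and 6 at chr6:130440001-130450000 and 32 and 16 at chr6:130480001-130490000.

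Between these stretches the Klr parts held long intervals without a call. The longest without an H3K4me3-enriched bin was 1198 kb (chr6:130044001-131242000), with 690 CD4 and 19 CD8 reads, 23.4% and 0.555% of input, and the next was 500 kb (chr6:129542001-130042000), with 416 and 10 reads. Outside enriched bins the Klr parts as a whole lay at 22.6% of input in CD4 and 0.858% in CD8, beside the 19.2% and 1.20% of the bins away from marks over the genome. H3K36me3 outside enriched bins lay at 62.2% and 63.7% of input, beside the 31.7% and 32.5% of those bins. The longest interval without an H3K36me3-enriched bin was 740 kb (chr6:130490001-131230000), at 49.1% and 39.7% of input.

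The Klr parts were also thin in input. Their bins of 10 kb held a median of 28.5 CD4 and 29 CD8 input reads, against 39 and 37 in the Cd69 part and 41 and 40 over the genome, and 32.2% of their 2 kb bins had fewer than 3 reads in an input, against 6.67% in the Cd69 part and 18.7% over the genome. The part of this depth, and of repeated sequence, in the low number of enriched bins was not tested. Setting one input against the other by the same rules called no 2 kb bin of the complex. It called 6 (CD8 over CD4) and 2 (CD4 over CD8) of the 310 bins of 10 kb, with folds of 2.04 to 2.75. Over the genome it called 994 and 972 of the 264195 bins of 10 kb, a smaller share in both directions. None of the called bins of the complex was enriched for H3K36me3 in either cell type.

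Few H3K4me3 bins lay near the threshold of 4. In CD4 cells the 3 just inside were at 4.90-fold (chr6:129136001-129138000), 5.21-fold (chr6:129226001-129228000) and 5.37-fold (chr6:129282001-129284000), and the nearest outside was at 3.60-fold (chr6:128786001-128788000). In CD8 cells those inside were at 4.28-fold (chr6:129182001-129184000), 4.43-fold (chr6:129540001-129542000) and 5.11-fold (chr6:129184001-129186000), and one bin with enough reads lay outside, at 1.72-fold. H3K36me3 was continuous across its threshold of 2: the nearest bins were at 2.02-fold inside and 1.91-fold outside in CD4, and at 2.09-fold and 1.89-fold in CD8.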

How the data were processed

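The deposited files list aligned reads of 33 bp with chromosome, start and end for 6 libraries. These other values, read positions, are as deposited by the authors. No strand was read, so distinct starts were counted without regard to it. Per the submitters' processing notes the reads are placed on mm9, and which aligner and read filter were used, or how reads matching several places were treated, is not stated there. Reads were counted once, by midpoint, on chromosomes 1 to 19, X and Y (98.3% to 99.8% kept), with repeated starts retained, and scaled to library totals. Enrichment, the ratio between cell types and its centre are as stated in the results. The rules were applied to every bin of the genome and only those of the complex are printed. All enriched stretches are named, adjacent bins joined. The window, its divisions and the gene lists were chosen with earlier results of these data known. The 100 kb tiles, the run length of 3 bins, the exchange of inputs and the alternatives for single stretches were chosen after values were seen. The counting rules were run on simulated Poisson counts, with changes set above the thresholds in bins with enough reads. That setting does not cover weak bins, repeated starts or the unequal background of the H3K4me3 libraries. Alternatives changed the fold, the read minimum, the bin offset, the input, repeated starts, the scaling, the background and the limits of the divisions. Ratios with each start counted once used a centre computed from such counts, unless stated. Versions were matplotlib 3.10.9, SciPy 1.17.1, pandas 2.3.3, NumPy 2.4.6 and Python 3.11.15.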

Additional observations from a re-analysis of the deposited data

Results flagged for a closer look

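Bins enriched in one cell type and below input in the other are listed here. These differences were not tested, since each group has 1 library. Input is not the unmarked level. The bins away from marks, low by choice, lay at 31.7% (CD4) and 32.5% (CD8) of input for H3K36me3. For H3K4me3 in CD8 they lay at 1.20%. A value below input can therefore lie above this background. For H3K4me3, 4 of the 36 bins of the complex enriched in either cell type were enriched in CD4 alone, beside 3577 of 24614 over the genome. Of these 4 bins of the complex, 3 lay below input in CD8. The bin at chr6:129136001-129138000 lay at 4.90-fold over input in CD4 (31 reads) and 0.0915-fold in CD8 (1 read), the bin at chr6:129226001-129228000 at 5.21-fold (22 reads) and 0.118-fold (1 read), and the bin at chr6:130042001-130044000 at 11.4-fold (36 reads) with 0 CD8 reads. The first 2 are edges of larger stretches enriched in both cell types, and the last stands alone.

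For H3K36me3, 3 bins were enriched in CD8 and below input in CD4: chr6:129090001-129100000 (2.21-fold in CD8, 0.966-fold in CD4), chr6:129480001-129490000 (2.57-fold and 0.833-fold) and chr6:129550001-129560000 (3.66-fold and 0.493-fold). The bin at chr6:130440001-130450000 was enriched in CD4 (2.44-fold) and below input in CD8 (0.521-fold), on 21 and 6 reads.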

How the results depend on the processing

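No paired analysis was possible because each group has 1 library. Over the alternatives, 116 of 144 values of the main results stayed within their counting interval or within 1.5 times the main count, 28 moved and 0 reversed. Only ratios and levels could reverse, since counts could only hold or move. Leaving out bins under 3 input reads could not change the enriched H3K36me3 counts, because 0 of the 310 bins of 10 kb had so few. Pooled inputs, a minimum of 10 reads, background subtraction and a fold of 3 between cell types moved none. For H3K4me3, a fold of 8 over input left 5 CD4 and 3 CD8 enriched bins in the Cd69 part. A minimum of 50 reads left 5 and 3 there and 3 CD4 bins in the Klr parts. Without bins under 3 input reads the Klr parts had 3 CD8 bins. Bins higher in CD8 numbered 1 with bins moved by 1 kb, 2 without bins under 3 input reads and 4 on total reads. For H3K36me3, a fold of 3 left 10 CD4 and 11 CD8 enriched bins in the complex, 3 and 3 in the Cd69 part, 2 and 3 in the Klr parts, and 2 bins higher in CD8. A minimum of 50 reads left 5 CD4 bins in the Klr parts. With bins moved by 5 kb, 1 was higher in CD4 and 2 in CD8. The H3K4me3 log2 ratio of the Cd69 part was 2.00 on total reads, 2.03 with 1 read per start and 2.86 with limits moved out by 50 kb. The H3K4me3 level of the Cd69 part over the Klr parts became 7.21, 11.2 and 10.2 in CD4 and 6.00, 4.12 and 6.34 in CD8 with 1 read per start, moved limits, and without bins under 3 input reads. Of 74 values of single stretches, 67 were counted as holding their call or lack of one, and 4 lost the call. Another 2 reversed, neither called: chr6:128748001-128754000 (log2 -0.14 on total reads) and chr6:128792001-128794000 (0.17 with 1 read per start). A change of sign was counted as reversed only where the main interval excluded 0. Where it included 0, the sign also changed at chr6:128374001-128376000 (-0.38 on total reads) and chr6:129540001-129542000 (0.016 with 1 read per start). At chr6:128998001-129000000 the sign changed under both (-0.055 with 1 read per start, -0.20 on total reads). The stretch at chr6:128304001-128308000 was called higher in CD8 on total reads (-1.36). Limits moved by 50 kb take in the stretch at chr6:129130001-129138000. Other causes were not tested.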
